A study of Mus musculus with 8 samples.

Results

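Interferon-stimulated effector genes encode the proteins that carry out the antiviral state of a cell. The 39 genes described here are a list of names, drawn up with earlier results of these data known though by no cut on measured values, and all 39 were found among the 23284 gene rows of the deposited expression table. In a mouse pluripotent line with an inducible microRNA transgene, 38 of the 39 fell after transient doxycycline, against vehicle-treated cells of the same line. Of all genes tested, 14.8% fell. The vehicle-treated cells held most of the 39 far above the levels of a wild-type line.

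When a cell senses viral nucleic acid it secretes type I interferons such as interferon beta, which act on the same cell and on its neighbours. Their receptor activates the kinases JAK1 and TYK2, and transcription factors that include STAT2 and IRF9 then assemble into a complex that binds the interferon-stimulated response element in the promoters of target genes. The products bind foreign RNA, degrade RNA, block translation, trap virus particles or tag proteins with the ubiquitin-like modifier ISG15. Pluripotent stem cells are known to make little interferon and to respond to it weakly, and to rely on other antiviral defences.

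The study profiled polyadenylated RNA of mouse induced pluripotent stem cells (iPSCs), reprogrammed from embryonic fibroblasts and grown over feeder cells, in 8 strand-specific libraries. One line was homozygous for a knock-in of miR-203 at ColA1 and of the doxycycline-dependent activator rtTA at Rosa26, written ColA1_miR203 (KI/KI); Rosa26rtTA (KI/KI) in the labels. Its dox libraries (clones 1 and 2, n = 2) came from cells given doxycycline for 5 days and then kept 2 weeks without it, so that the microRNA was induced transiently, and its vehicle libraries (clones 1 and 2, n = 2) from cells of the same genotype given vehicle. The other line, from wild-type mice, was ColA1_miR203 (+/+); Rosa26rtTA (+/+) and was collected 1 week after transfection with siRNA against the DNA methyltransferases Dnmt3a, Dnmt3b or both (the double siRNA), or with control siRNA (siControl), with 1 library in each group. The lines therefore differ in genotype and agent at once, and the dox libraries differ from wild type also in time since treatment. No time was found in the labels for the vehicle libraries, so dox and vehicle may differ in time too. No wild-type library received doxycycline. The labels do not say that equal clone numbers in dox and vehicle stand for the same clone. Values are FPKM, fragment counts relative to transcript length and to library size, as the authors deposited them.

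Depth in fragments is unknown. Summed FPKM ran from 486917 to 586657 over the 8 libraries, the double siRNA library being highest. The pluripotency factor Pou5f1 lay between 855 and 1223 FPKM in all 8 libraries, but the lines differed in other pluripotency markers. Of 18 such markers, 12 lay above and 5 below all wild-type libraries in both dox libraries, and 11 above and 4 below in both vehicle libraries. Over 12042 genes averaging 1 FPKM or more in the 8 libraries, 38.7% lay above in both dox libraries and 38.9% in both vehicle libraries. The share of all genes that lay below was not computed. Nanog was at 256 to 283 FPKM in dox, 209 to 256 in vehicle and 69.3 to 77.6 in wild-type libraries, and Tfcp2l1 at 107 to 110.01 in dox, 70.2 to 72.2 in vehicle and 6.30 to 7.98 in wild-type libraries. The siRNA targets were little reduced. Dnmt3a was at 59.8 FPKM with siDnmt3a, 77.6 with siDnmt3b and 69.5 with both, against 75.1 in siControl, and Dnmt3b was at 135, 128 and 135 FPKM, against 146. These libraries had no replicates. The p-values of the knock-in comparison rest on the spread between 4 libraries, moderated by a trend over all genes tested, and measure no other variation.

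The core of the interferon-stimulated response element, searched as GAAANNGAA on either strand (TTCNNTTTC when it lies on the opposite strand, with overlapping matches allowed), was looked for in promoters from 250 bases before to 50 bases after the start site. RefSeq promoters on GRCm38.p6 were matched for 28 of the 39 genes, and 16 of these, or 57.1%, held a match. The share was 9.76% of 27025 genes in the whole promoter table and 8.60% of the 8504 genes with a promoter among those tested in the knock-in line. Of the other interferon-stimulated genes listed for comparison, 20 of 38 with a promoter held one, and of the pluripotency markers 1 of 12. The following upstream stretches are shown because the genes share the element and yet fell by very unequal amounts after dox, as given further on; matches are in capitals, and each stretch reads 5′ to 3′ on the strand of its gene.
Rsad2, chr12:26456543-26456591, minus strand: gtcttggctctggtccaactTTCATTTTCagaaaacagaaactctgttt
Gbp2, chr3:142620585-142620633, plus strand: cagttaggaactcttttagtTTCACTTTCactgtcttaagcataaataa
Ifit1, chr19:34640760-34640833, plus strand: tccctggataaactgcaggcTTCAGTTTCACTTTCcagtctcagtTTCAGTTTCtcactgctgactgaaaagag
Oas1a, chr5:120907526-120907565, minus strand: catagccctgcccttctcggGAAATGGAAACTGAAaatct
Isg15, chr4:156200856-156200916, minus strand: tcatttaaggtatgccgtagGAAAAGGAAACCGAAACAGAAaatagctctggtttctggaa
Ifit3, chr19:34583354-34583455, plus strand: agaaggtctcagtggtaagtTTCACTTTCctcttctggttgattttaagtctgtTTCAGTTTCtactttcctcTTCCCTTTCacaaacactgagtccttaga
Bst2, chr8:71537568-71537622, minus strand: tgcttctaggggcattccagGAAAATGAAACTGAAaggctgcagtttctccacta

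Isg15 and Ifit1 hold 3 matches each, Oas1a and Bst2 hold 2 each that overlap, and Rsad2 and Gbp2 hold 1 each. Ifit2, Cmpk2, Oasl1, Oasl2, Isg20, Ifi35, Xaf1, Dtx3l, Herc6, Sp110, Znfx1 and Uba7 had no match in their window. Oas1b, Oas2, Mx1, Mx2, Ifi27l1, Usp18, Rtp4, Parp9, Parp14, Zbp1 and Tor3a had no promoter entry. A match is a description of the letters and does not show binding.

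In the knock-in line, the effector genes were lower in dox than in vehicle nearly throughout. Of the 39 genes, all of which passed the minimum of a mean of 1 FPKM over the 4 libraries, 38 fell, 0 rose and 1 did not pass the test (limma on log2(FPKM + 1), Benjamini-Hochberg adjusted p under 0.05 over all genes). Over all 11927 genes tested, 14.8% fell and 17.1% rose. Before adjustment, 38 of the 39 were lower and 1 was higher at p under 0.05. The median difference of the 39 genes was -1.15 on the log2 scale, beside -0.01 over all genes tested. In mean FPKM, the median gene stood at 43.3% of its vehicle level in dox libraries, and the genes that fell ranged from 8.86% (Cmpk2) to 84.6% (Ifitm3). By size, 5 genes differed by -2 or lower, 19 lay between -2 and -1, 11 between -1 and -0.5, and 3 fell by less than 0.5.

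**Figure D1:**
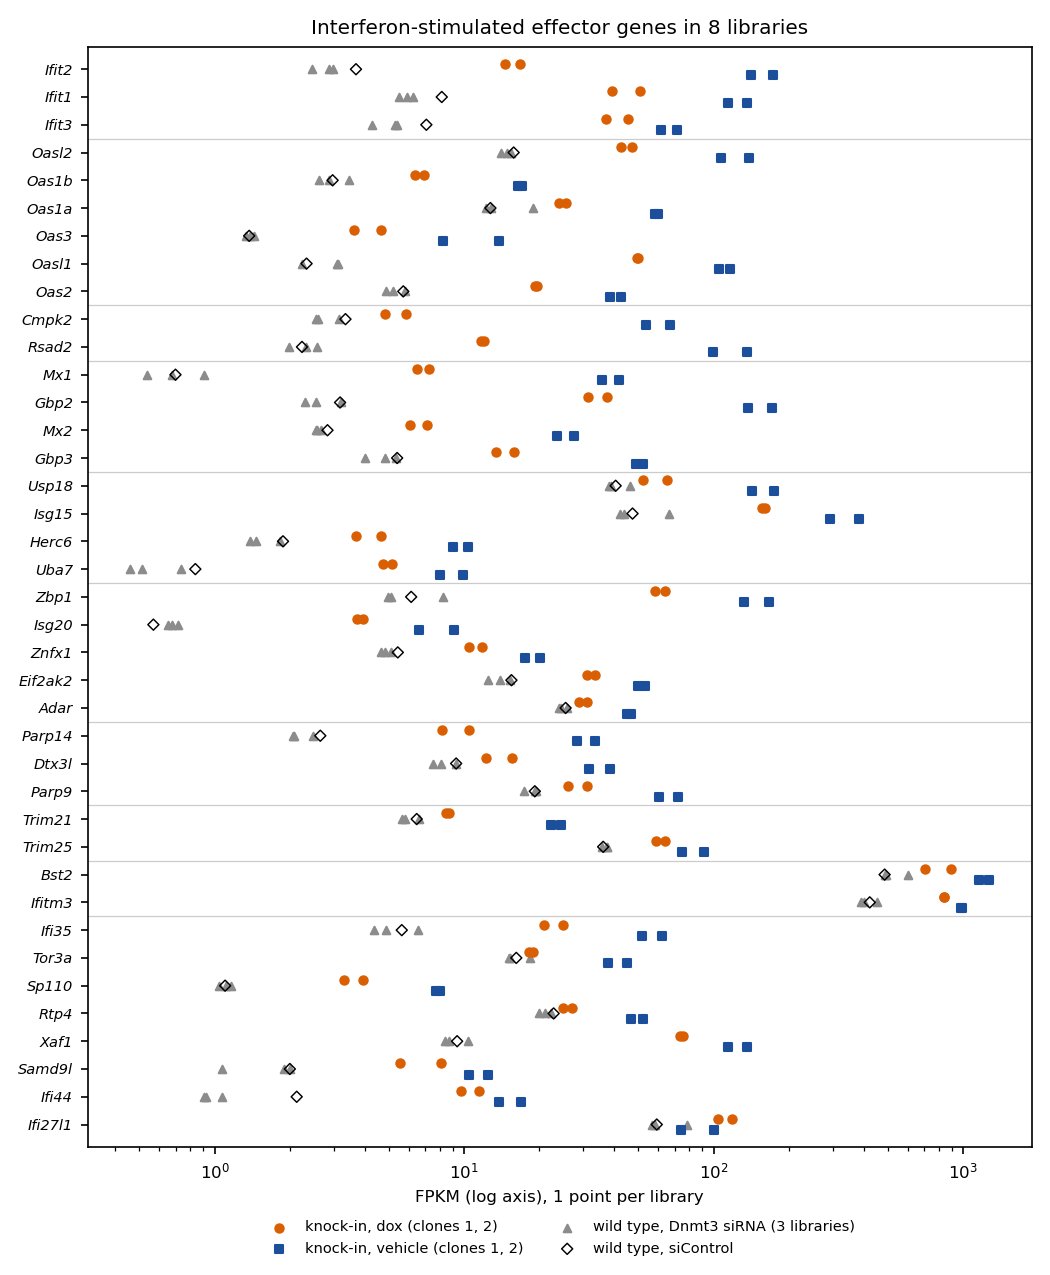
FPKM of the 39 effector genes on a log axis, 1 point per library, with genes grouped by role and ordered by their difference within each role. Orange circles are the dox libraries, blue squares the vehicle libraries, grey triangles the 3 Dnmt3 siRNA libraries and open diamonds siControl. In 37 of 39 genes both dox libraries lie between the vehicle and the wild-type libraries.

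The IFIT genes encode proteins with tetratricopeptide repeats that bind foreign RNA and hinder its translation. Ifit2 was at 16.7 and 14.7 FPKM in dox clones 1 and 2, against 142 and 172 in vehicle clones 1 and 2, and at 2.45 to 3.69 in the wild-type libraries. Ifit1 was at 50.9 and 39.2 FPKM in dox, against 114 and 137 in vehicle, and Ifit3 at 45.2 and 37.0 in dox, against 61.3 and 71.2 in vehicle. The groups overlapped for none of these 3 genes, but the sizes were unequal. Both dox libraries lay below both vehicle libraries in 38 of the 39 effector genes, beside 37.1% of all genes tested, so the lack of overlap in a single gene says little with 2 libraries a group. The log2 difference was -3.24 for Ifit2 (SE 0.116, limma adjusted p = 8.41e-05), -1.46 for Ifit1 (SE 0.142, limma adjusted p = 0.00117) and -0.68 for Ifit3 (SE 0.12, limma adjusted p = 0.00970). All 3 lie on the plus strand of chromosome 19 within 99316 bases (GRCm38), Ifit2 from 34550694 to 34576419, Ifit3 from 34583531 to 34588731 and Ifit1 from 34640871 to 34650009. Vehicle levels of Ifit2 exceeded those of Ifit3, whereas in dox Ifit3 stood above Ifit2 in both clones. Ifit3 shares 51.2% of its 50-base words with its copy Ifit3b, so its value is uncertain.

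Rsad2 and Cmpk2 fell together and were among the genes with the largest differences. Rsad2 encodes viperin, an enzyme that makes a chain-terminating nucleotide, and Cmpk2 a mitochondrial nucleotide kinase. Rsad2 was at 12.04 and 11.7 FPKM in dox, against 99.9 and 136 in vehicle, and Cmpk2 at 5.86 and 4.80 in dox, against 53.7 and 66.7 in vehicle. Both genes stood at about the same fraction of vehicle, 10.1% for Rsad2 and 8.86% for Cmpk2. The log2 difference was -3.19 for Rsad2 (SE 0.142, limma adjusted p = 1.42e-04) and -3.27 for Cmpk2 (SE 0.134, limma adjusted p = 1.17e-04). They are neighbours on chromosome 12, on opposite strands, with starts 12752 bases apart (Rsad2 from 26442746 to 26456452, Cmpk2 from 26469204 to 26479837).

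The dynamin-like and guanylate-binding GTPases, which self-assemble on viral or vacuolar structures, all fell by more than the median effector gene. Mx1, on chromosome 16, was at 7.23 and 6.46 FPKM in dox, against 35.6 and 41.7 in vehicle. Gbp2, on chromosome 3, was at 37.5 and 31.5 FPKM in dox, against 138 and 172 in vehicle. Neither gene overlapped between the groups, beside 37.1% of all genes tested that lay lower in dox without overlap. The log2 difference was -2.33 for Mx1 (SE 0.107, limma adjusted p = 1.42e-04) and -2.13 for Gbp2 (SE 0.131, limma adjusted p = 2.68e-04). Their relatives fell too, Mx2 with a log2 difference of -1.81 and Gbp3 with one of -1.72. Mx2, like Oas1b, is annotated as a polymorphic pseudogene, because laboratory strains differ in whether it codes for a whole protein.

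The oligoadenylate synthetases make a second messenger that activates the antiviral nuclease RNase L when they meet double-stranded RNA, and the related Oasl1 lacks that activity. All 6 family members fell, and within a narrow range, between -1.43 (Oasl2) and -1.02 (Oas2). Oas1a was at 25.7 and 24.0 FPKM in dox, against 58.2 and 59.7 in vehicle (-1.21, SE 0.0770, limma adjusted p = 2.99e-04). Oasl1 was at 49.1 and 49.6 FPKM in dox, against 105 and 117 in vehicle (-1.15, SE 0.0796, limma adjusted p = 3.88e-04). Oas3, built of synthetase units in tandem, was at 3.63 and 4.63 FPKM in dox, against 8.24 and 13.9 in vehicle, and so spread more between clones (-1.20, SE 0.224, limma adjusted p = 0.0114). No member overlapped between dox and vehicle, beside 37.1% of all genes tested that lay lower in dox without overlap. Oas1a, Oas1b, Oas2 and Oas3 lie in 1 cluster on chromosome 5 between 120730333 and 120907521, and Oasl1 and Oasl2 side by side between 114896936 and 114937915. Oas1a shares 57.6% of its 50-base words with other genes, chiefly Oas1g, and is uncertain.

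The ISG15 system fell at every step for which a gene was listed. Isg15, the modifier, was at 160.4 and 157 FPKM in dox, against 294 and 382 in vehicle (-1.07, SE 0.123, limma adjusted p = 0.00208). Uba7, its activating enzyme, was at 4.76 and 5.16 FPKM in dox, against 8.00 and 9.95 in vehicle (-0.74). Herc6, the mouse ligase that attaches it, was at 4.64 and 3.69 FPKM in dox, against 9.02 and 10.4 in vehicle (-1.06). The groups did not overlap for these 3 genes, beside 37.1% of all genes tested that lay lower in dox without overlap. Herc6 shares 23.8% of its 50-base words with another annotated gene. Usp18, which removes ISG15 and also damps signalling at the interferon receptor, was at 65.1 and 52.4 FPKM in dox, against 175 and 142 in vehicle (-1.42, SE 0.136, limma adjusted p = 0.00114). It was the gene of this system with the largest difference.

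Sensors and enzymes acting on nucleic acids fell by less, with a median of -0.71 over 5 genes. Zbp1, a sensor of left-handed nucleic acid that can trigger cell death, was at 58.1 and 63.6 FPKM in dox, against 132 and 167 in vehicle (-1.28, SE 0.12, limma adjusted p = 0.00106). The others fell as well, Isg20, a ribonuclease, with a log2 difference of -0.86, Znfx1, a helicase-like RNA sensor, with -0.71, and Eif2ak2, the kinase PKR that halts translation, with -0.66. Adar, the adenosine deaminase that edits double-stranded RNA, was at 31.1 and 28.8 FPKM in dox, against 45.0 and 46.7 in vehicle (-0.60, SE 0.0787, limma adjusted p = 0.00346). Adar was already at 24.0 to 25.8 FPKM in wild-type libraries, and the dox libraries lay above that range by little.

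Parp9 and Dtx3l encode partner proteins and Parp14 a relative of Parp9, and all 3 genes lie on chromosome 16 between 35832874 and 35972605. All 3 fell, with log2 differences of -1.18 for Parp9, -1.28 for Dtx3l and -1.64 for Parp14. Parp9 and Dtx3l overlap by 682 bases on opposite strands, and since the strand setting of the counting is not given, reads of that stretch cannot be assigned. Of the TRIM ubiquitin ligases, Trim21, which binds antibody-coated virus, was at 8.43 and 8.73 FPKM in dox, against 22.4 and 24.6 in vehicle (-1.35, SE 0.0884, limma adjusted p = 3.32e-04). Trim25, which ubiquitinates the RNA sensor RIG-I, was at 64.1 and 58.6 FPKM in dox, against 91.6 and 74.9 in vehicle (-0.43, SE 0.110, limma adjusted p = 0.0297). The Trim25 call was lost without dox clone 2 (limma adjusted p = 0.0670) and without vehicle clone 1, where the difference was -0.28 (limma adjusted p = 0.143).

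The membrane restriction factors were the most abundant of the 39 genes and among those that fell least in proportion. Bst2, tetherin, which holds budding virus at the cell surface, was at 706 and 892 FPKM in dox, against 1163 and 1272 in vehicle (-0.62, SE 0.117, limma adjusted p = 0.0122). Ifitm3, which blocks fusion of virus with endosomes and is known to be expressed by pluripotent cells without interferon, was at 836 and 837 FPKM in dox, against 985 and 993 in vehicle (-0.24, SE 0.0613, limma adjusted p = 0.0285). Neither overlapped between the groups, beside 37.1% of all genes tested that lay lower in dox without overlap. The Ifitm3 call was lost when any 1 of the 4 libraries was left out (limma adjusted p between 0.0880 and 0.167), and 10.0% of its 50-base words occur in other genes.

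The remaining 8 genes have less settled or separate roles, and 7 of them fell. The log2 difference was -1.28 for Ifi35, which encodes an interferon-induced partner of NMI, and -1.11 for Tor3a, a torsin ATPase of the endoplasmic reticulum. It was -0.94 for Sp110, a nuclear body protein, -0.89 for Rtp4, a receptor chaperone, and -0.74 for Xaf1, an antagonist of apoptosis inhibitors. Samd9l, a growth-restraining antiviral factor, was at 8.09 and 5.56 FPKM in dox, against 10.5 and 12.5 in vehicle (-0.69, SE 0.169, limma adjusted p = 0.0260). Ifi44 was at 11.5 and 9.76 FPKM in dox, against 13.8 and 16.8 in vehicle (-0.49, SE 0.125, limma adjusted p = 0.0296). Both calls were lost without vehicle clone 2 (limma adjusted p = 0.0765 for Samd9l and 0.113 for Ifi44). Without dox clone 2 the Ifi44 call was lost too (limma adjusted p = 0.0774) and the Samd9l difference was -0.45. Sp110 shares 53.8% of its 50-base words with other annotated genes.

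Ifi27l1, a gene of the ISG12 family that the GENCODE annotation used here names Ifi27, was the exception. It was at 104 and 118 FPKM in dox, against 100.03 and 73.7 in vehicle, and at 56.4 to 78.2 in wild-type libraries. Both dox libraries were above both vehicle libraries, and vehicle clone 2 lay within the wild-type range. The difference of 0.36 did not pass (SE 0.147, limma adjusted p = 0.103). It passed without dox clone 1 (limma adjusted p = 0.0449) and without vehicle clone 1 (0.0187, difference 0.58), and without vehicle clone 2 the difference was 0.15. Between libraries of equal clone number, the difference was 0.05 for number 1 and 0.67 for number 2.

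**Figure D2:**
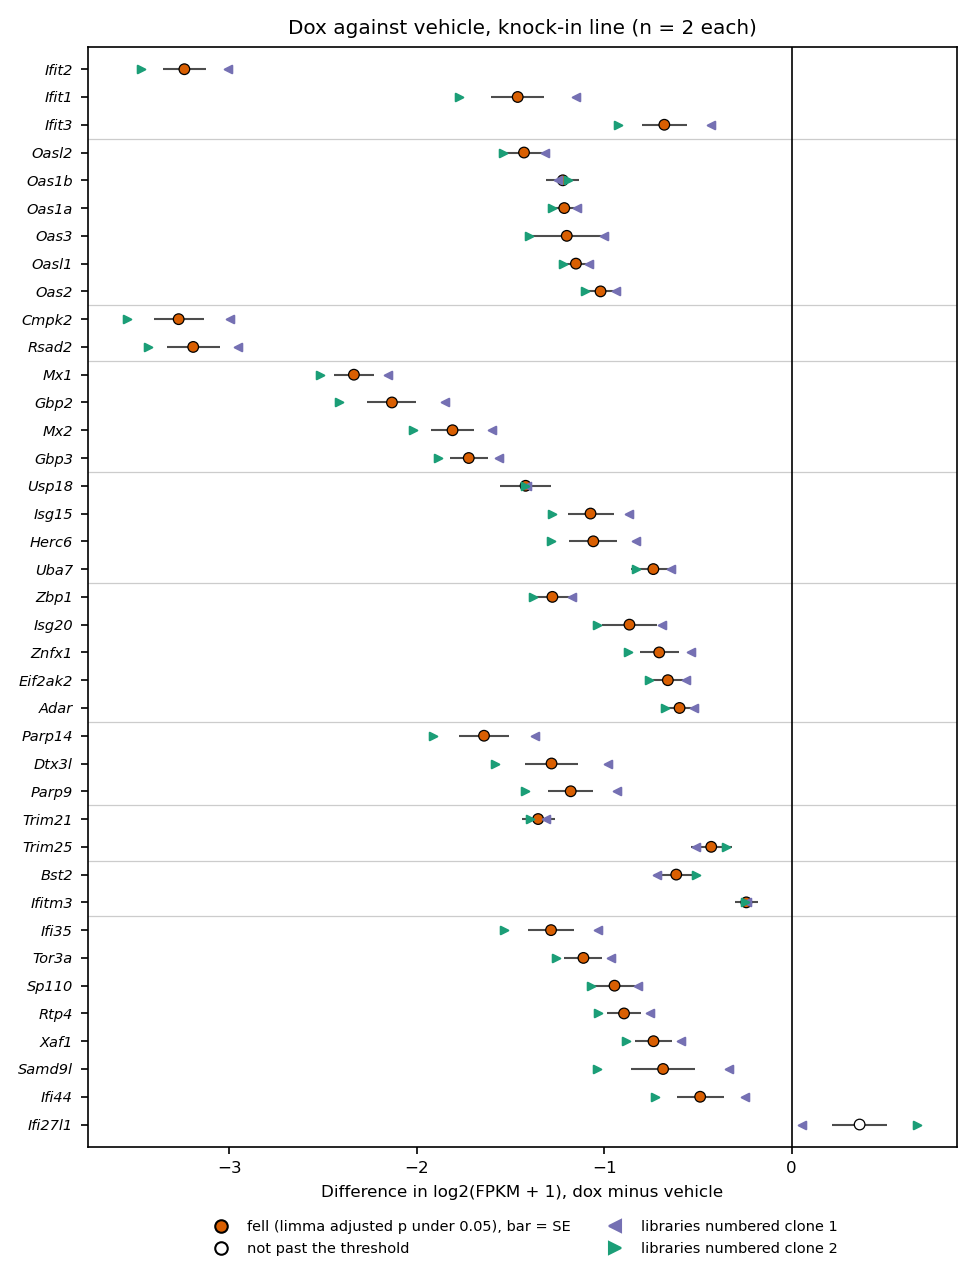
Difference in log2(FPKM + 1) of each effector gene, dox minus vehicle, by role. Circles are the means of 2 against 2 libraries with the SE of the limma fit as bars, filled where the gene fell, and triangles are the differences between libraries of equal clone number, 1 or 2. Only the circle of Ifi27l1 lies above 0, and the triangles of clone 2 lie further left than those of clone 1 in 35 of 39 genes.

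Set side by side by clone number, the libraries gave unequal sizes. The median difference was -0.96 between the libraries numbered 1 and -1.28 between those numbered 2, and 35 of 39 genes had the lower difference under number 2, beside 55.6% of all genes tested. Within vehicle, 36 of 39 genes were higher in clone 2 than in clone 1, beside 52.1% of all genes, and within dox 28 of 39 were lower in clone 2, beside 51.4%. Each clone number stands for 1 library per group, so this difference was not tested.

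Set against the wild-type line, the vehicle libraries stood higher than the dox libraries did. Both vehicle libraries lay above all 4 wild-type libraries in 38 of 39 genes, the exception being Ifi27l1, while 38.9% of 12042 genes with a mean of 1 FPKM or more over the 8 libraries did so. Both dox libraries lay above all 4 wild-type libraries also in 38 of 39 genes, the exception being Tor3a, beside 38.7% of all genes. In 37 of 39 genes the dox libraries lay below vehicle and above wild type, beside 8.40% of all genes. Vehicle levels were 1.48 to 56.3 times the median of the wild-type libraries, with a median of 7.42, and 15 genes reached 10-fold. Dox levels were 1.18 to 18.2 times that median, with a median of 2.96, and 4 genes reached 10-fold while 12 stayed under 2-fold. No share over all genes was computed for these fold counts. The wild-type medians of Mx1, Isg20 and Uba7 were 0.686, 0.665 and 0.624 FPKM, so their folds rest on low values.

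The effector genes stood at unequal distances from wild type. Mx1 was at 0.537 to 0.906 FPKM in wild-type libraries and Oasl1 at 2.24 to 3.12, and vehicle stood at 56.3 and 40.8 times their medians. In dox, Mx1 stood at 9.97 and Oasl1 at 18.2 times the wild-type median, and Gbp2 at 12.03, Zbp1 at 10.8 and Ifi44 at 10.6 times. Cmpk2 stood at 20.9 times the wild-type median in vehicle and at 1.85 times in dox. Tor3a was at 18.8 and 18.2 FPKM in dox, against 15.1 to 18.4 in wild-type libraries, and Rtp4, Adar and Trim21 in dox were at 1.20, 1.20 and 1.40 times their wild-type medians. As a sum, the 39 genes made up 0.536% and 0.573% of all FPKM in the dox libraries, 0.907% and 1.03% in the vehicle libraries and 0.237% to 0.258% in the wild-type libraries. Genotype and agent differ together between the lines, and time in culture may differ as well. These cannot be told apart, and no test was run.

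Genes listed as markers of other cells moved in the same comparisons. Of 29 measured feeder fibroblast markers, 27 rose in dox, beside 17.1% of all genes tested, with a median difference of 1.34. Their summed level was 3579 and 3739 FPKM in dox, 1209 and 1401 in vehicle and 558 to 706 in wild-type libraries, and Fap was listed at 0 in the siDnmt3a library. Mmp3, Dcn, Col3a1 and Col1a2 rose most of these markers. Of 16 measured macrophage markers, 10 rose in dox, beside 17.1% of all genes tested, with a median difference of 0.50. C1qa (1.16) and Cd52 (1.00) rose most. The 6 that did not pass, named after their values were seen, were Csf1r (0.51), Lyz2 (0.50), Cd68 (0.26), Mpeg1 (-0.01), Laptm5 (-0.04) and Ptprc (-0.11). The summed level of the macrophage markers was 680 and 817 FPKM in dox, 518 and 545 in vehicle and 215 to 283 in wild type. None of them was at 0 in any library. Of 18 pluripotency markers, 5 rose, 4 fell and 9 did not pass (median -0.03), while 17.1% of all genes tested rose and 14.8% fell. Dppa5a, Klf4 and Tbx3 were among the risen markers and Dppa4 among the fallen. Which cells these transcripts came from was not tested, nor was the part of feeder cells or macrophages in the result. In such bulk samples fewer cells of a type and less RNA per cell cannot be told apart.

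Upstream of the effectors, the ligand gene Ifnb1 and some of the transcription factors of the pathway, though not all, also fell in dox. Ifnb1, interferon beta, was at 0.168 and 0.108 FPKM in dox, against 4.81 and 5.87 in vehicle, and at 0.108 to 0.291 in the wild-type libraries (-2.47, limma adjusted p = 1.93e-04). Both dox libraries of Ifnb1 lay within its wild-type range, clone 2 at the lower edge. In 38 of the 39 effector genes the dox libraries exceeded the wild-type range of the gene. The dox and wild-type values of Ifnb1 were under 1 FPKM at unknown depth, so they cannot show whether Ifnb1 matched wild type. Stat2 was at 33.4 and 31.6 FPKM in dox, against 70.6 and 77.3 in vehicle (-1.16). Irf7, which amplifies interferon production, was at 94.6 and 91.5 FPKM in dox, against 144 and 166 in vehicle (-0.73), and Irf9 at 24.5 and 20.2 in dox, against 29.5 and 28.7 in vehicle (-0.37, limma adjusted p = 0.0384). The Irf9 call was lost without dox clone 2, vehicle clone 1 or vehicle clone 2 (limma adjusted p between 0.0911 and 0.142), and its difference without dox clone 2 was -0.24. The feedback inhibitor Socs1 (-1.54) and the RNA sensor gene Ifih1 (-1.20) fell as well. Of the 20 measured ligands, sensors and regulators, 10 fell, 2 rose and 8 did not pass, with a median of -0.38. Among all genes tested, 14.8% fell and 17.1% rose. The 8 that did not pass, named after their values were seen, were Dhx58 (-0.38), Tbk1 (-0.37), Irf3 (0.002), Tyk2 (0.14), Ifnar1 (0.17), Mavs (0.18), Irf2 (0.19) and Jak1 (0.27). The risen pair, named after their values were seen, were the receptor chain Ifnar2 (0.93) and Tmem173, the adaptor STING (0.31, limma adjusted p = 0.0477). The Tmem173 call was lost when any 1 of the 4 libraries was left out (limma adjusted p between 0.112 and 0.194).

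Other interferon-stimulated genes moved the same way less uniformly. Of 45 measured, 33 fell, 3 rose and 9 did not pass, with a median of -0.60, while 14.8% of all genes tested fell and 17.1% rose. Among the fallen were Nmi, a partner of Ifi35 (-1.74), the guanylate-binding protein gene Gbp5 (-1.60), the ADP-ribosyltransferase gene Parp12 (-1.54) and Epsti1 (-1.49). The 3 that rose, named after their values were seen, were Lgals3bp (0.65), Ifi27l2a (0.55) and Ifitm2 (0.29). The Ifi27l2a call was lost without dox clone 2 or vehicle clone 1 (limma adjusted p = 0.0560 and 0.0938), and the Ifitm2 call without dox clone 1, dox clone 2 or vehicle clone 2 (0.0749 to 0.153). Ifi27l2a is a relative of Ifi27l1, the effector gene that did not fall, and Ifitm2 a neighbour of Ifitm3, the one with the smallest fall. Genes of interferon gamma reception and of class II antigen presentation rose in part. Of 5 measured, 4 rose, beside 17.1% of all genes tested, namely Cd74 (1.33), H2-Ab1 (0.92), Ifngr1 (0.84) and Ifngr2 (0.65). Ifng itself was listed at 0 in all 8 libraries. The macrophage markers rose in the same libraries, and their part in this rise was not tested.

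**Figure D3:**
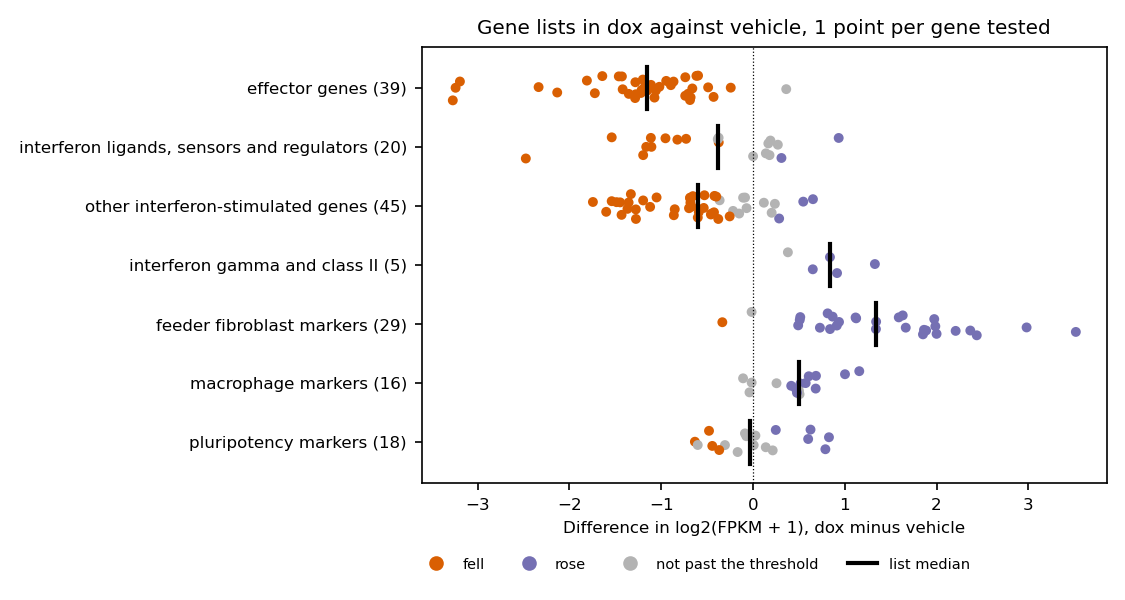
Difference in log2(FPKM + 1), dox minus vehicle, of each measured gene in the effector list and 6 comparison lists, with the number of genes in brackets. Orange points fell, purple points rose, grey points did not pass the limma threshold, and black bars are list medians. The effector median lies at -1.15, that of the other interferon-stimulated genes at -0.60 and that of the fibroblast markers at 1.34.

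In the wild-type line, siRNA against the DNA methyltransferases was followed by small differences in most effector genes. With a minimum mean of 1 FPKM over the libraries compared, 36 of the 39 genes were measured, and Mx1, Isg20 and Uba7 fell under it. On the log2(FPKM + 1) scale, no effector gene differed from siControl by a log2 of 1 or more in any of the 3 libraries. The share of all genes that did was 0.153% with siDnmt3a, 0.111% with siDnmt3b and 0.239% with both. In FPKM itself, which that scale understates for low genes, Ifi44 stood at 43.4% of siControl with siDnmt3a and at 42.6% with both, and it was the only effector gene measured that differed by 2-fold or more in those libraries. With siDnmt3b 0 did, and the share of all genes was 0.476% with siDnmt3a, 0.333% with siDnmt3b and 0.674% with both. Each group is 1 library, so there is no replicate check, and all 3 comparisons share the siControl library.

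In the siDnmt3a library, 33 of 36 effector genes were lower than in siControl and 3 were higher, with a median difference of -0.14, while 51.7% of all genes were lower. At a log2 difference of 0.32 or more in size, 5 were lower and 0 higher, beside 2.17% and 1.34% of all genes. The 5 were Ifi44, Ifit1, Ifit3, Gbp3 and Gbp2. Of 37 other interferon-stimulated genes measured with siDnmt3a, 30 were lower (median -0.14), and of 18 pluripotency markers 13 were lower (median -0.08). In the siDnmt3b library, 27 effector genes were lower and 9 higher, with a median of -0.08, while 51.3% of all genes were lower. Other interferon-stimulated genes were lower there in 27 of 37 (median -0.08). Of the effector genes, Ifit3, Ifi44 and Ifit1 were lower by that size with siDnmt3b and 0 were higher, beside 2.23% and 0.648% of all genes. In the double siRNA library, 17 effector genes were lower and 19 higher, with a median of 0.00, while 48.4% of all genes were lower. At 0.32, 5 were lower and 4 higher, beside 7.62% and 7.46% of all genes. The 5 were Ifi44, Samd9l, Ifit2, Ifit1 and Ifit3, and the 4 were Oas1a, Isg15, Ifi27l1 and Zbp1. That split depended on the scaling. With FPKM rescaled to the same sum in every library, which brought all 39 genes above the minimum, 11 were higher and 28 lower. Their median was then -0.16, while the median of all genes moved to -0.17. With that rescaling, 11 effector genes were lower by 0.32 or more in the siDnmt3a library. Among all genes 547 were lower by that size there, against 255 as deposited. All 39 effector genes had a median of -0.19 there, beside -0.04 over all genes. The rescaling raised all values, so the added 1 also weighed less.

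Ifi44, Ifit1 and Ifit3 were lower by that size in all 3 libraries. Ifi44 was at 0.926 FPKM with siDnmt3a, 1.07 with siDnmt3b and 0.909 with both, against 2.13 in siControl. Ifit1 was at 5.50, 6.26 and 5.91 FPKM in the same order, against 8.14 in siControl, and Ifit3 at 5.31, 4.26 and 5.38, against 7.06 in siControl. All 3 genes were lower in every siRNA library, and a low or high value of the single siControl library enters each difference. Isg15 was at 42.1, 43.7 and 66.5 FPKM, against 47.4 in siControl, and Oas1a at 12.8, 12.2 and 18.8, against 12.8 in siControl. For both genes the double siRNA library held the highest of the 4 values.

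**Figure D4:**
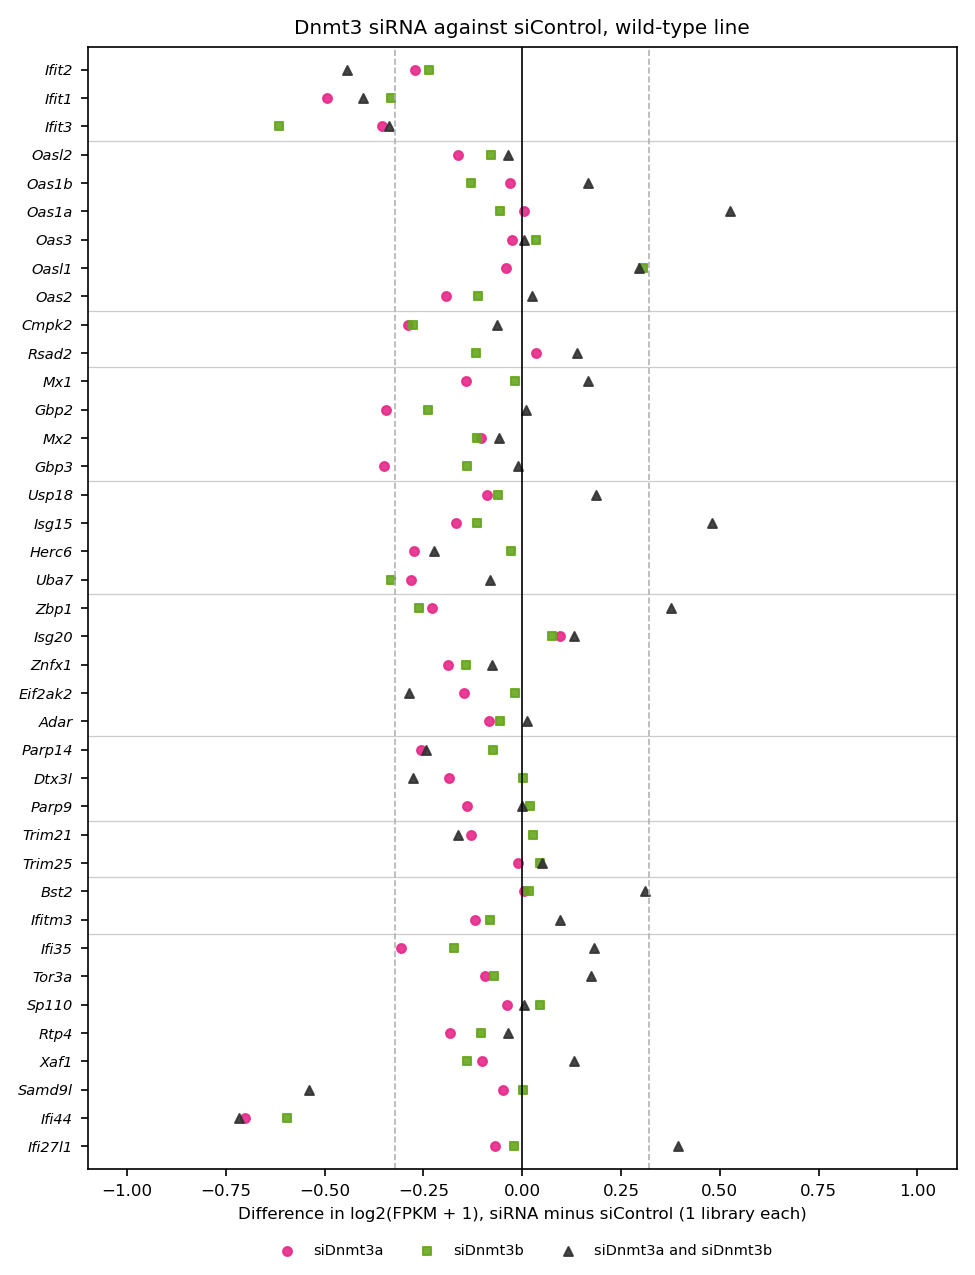
Difference in log2(FPKM + 1) of each effector gene, siRNA minus siControl, in the wild-type line, with 1 library per group and no error bars. Pink circles are siDnmt3a, green squares siDnmt3b and black triangles the double siRNA, and dashed lines mark 0.32 in either direction. The 3 Ifit genes and Ifi44 lie left of 0 in all 3 libraries, and no point reaches 1 in either direction.

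Some properties of the libraries ran alongside these differences. Across the 36 measured effector genes, the double siRNA difference went with GC content (Spearman's rho 0.720, and 0.481 over all genes) and against transcript length (-0.519, and -0.493 over all genes), a description across genes that share 2 libraries. With siDnmt3a, rho with GC content was 0.437 over the effector genes and 0.232 over all genes, and with siDnmt3b it was 0.212 and -0.262. Feeder fibroblast markers were lower in all 3 siRNA libraries, with medians of -0.54 (siDnmt3a), -0.59 (siDnmt3b) and -0.69 (both), and macrophage markers had medians, in that order, of -0.23, -0.11 and -0.09. Their part in the effector differences was not tested. In the knock-in line the corresponding Spearman's rho over the 39 genes was 0.304 with GC content and -0.041 with transcript length.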

How the data were processed

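Polyadenylated RNA of 8 libraries was sequenced strand-specifically on a HiSeq2500, per the labels. The authors deposited 1 table of FPKM, read here as given, and depth in fragments is unknown, so no counting interval was computed. Cuffnorm, Cufflinks 2.2.1, SAMtools 0.1.19, Bowtie 1.0.0, TopHat2 2.0.10 and FastQC are listed in the submitters' processing notes, with the builds mm10 and GRCm38. Annotation release, strand setting and Cuffnorm scaling were not given in the sources used here. Since FPKM are relative to the library, abundant genes that rise lower the values of others, and fragments of near-identical genes are divided by estimation.

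Dox and vehicle libraries (2 each) were fitted in R 4.3.3 by limma 3.58.1 (a linear model and eBayes with a trend, two-sided) to log2(FPKM + 1). The 11927 genes averaging 1 FPKM or more entered, and p-values were adjusted by Benjamini-Hochberg, with a call at under 0.05. Differences on this scale understate the change of low genes. The method was run on simulated data with 200 changed genes and independent noise. Those data held no clone structure, so the run checked the code and not the calls made here. The siRNA libraries, 1 per group, and the levels between lines were compared by value and by whether ranges overlap, with no test. The fit with the clone number as a replicate block was an alternative, as were other pseudocounts (0.1 and 0.5), minimum levels, scalings, the fit over 8 libraries and leaving out each library.

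The members and the gene lists were chosen with earlier results of these data known, so no list p-value is given. All 39 genes were named by rule, with the 4 largest differences past the threshold in each other list and Ifnb1, Stat2, Irf7, Irf9, Dnmt3a and Dnmt3b among those named in any case; a result that the rule names is not reported here. Of the 50 entries of other interferon-stimulated genes, 46 were matched, 3 were not and 1 is the same gene as Ifi27l1; every other list matched in full. Gene positions, GC content, length and shared 50-base words come from GENCODE on GRCm38, and promoters from RefSeq on GRCm38.p6.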

Additional observations from a re-analysis of the deposited data

How the results depend on the processing

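The count of 38 effector genes that fell was 38 with the replicate block (clone numbers as pairs) and lay between 32 and 38 over the alternatives, and no direction reversed. The count that rose, 0 as reported, was 1 (Ifi27l1, limma adjusted p = 0.0196) with the replicate block and between 0 and 1 when a library was left out. Calls were lost for Ifitm3, Ifi44, Trim25, Samd9l, Oas3 and Bst2 with no minimum level, and for Ifitm3 without a trend (adjusted p = 0.0693) and with all 8 libraries in the fit (0.0627), where Ifi44 was lost too (0.104). Trim25 was lost without dox clone 2 or vehicle clone 1. Risen regulators, 2 as reported, were 1 with no minimum level, with a minimum of 5 FPKM, with FPKM rescaled to equal sums and with all 8 libraries, and 1 to 2 when a library was left out. Other interferon-stimulated genes that rose, 3 as reported, were 1 with no minimum level, 5 with the replicate block and 1 to 3 when a library was left out. The replicate block changed no other call of an effector gene, and gave 7 risen and 7 fallen pluripotency markers in place of 5 and 4, and 13 risen macrophage markers in place of 10. The labels do not say that equal clone numbers are the same clone; number 2 minus number 1 in dox and in vehicle had r = 0.441 across the 11927 genes and 0.064 over the 39, and genes are not independent replicates.

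Over all genes, the 1767 that fell became 3190 with the replicate block, 947 with no minimum level, 940 without dox clone 2, 538 without vehicle clone 1 and 1057 without vehicle clone 2, and the 2035 that rose became 3052 with the block, 1289 with a minimum of 5 FPKM, 1316 without dox clone 2 and 1100 without vehicle clone 1. The cause was not tested.

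For the siRNA libraries, counts of effector genes at a log2(FPKM + 1) difference of 1 or more were 0 as reported. With a pseudocount of 0.1 they were 1 for siDnmt3a and 1 for the double siRNA, which also had 1 with FPKM rescaled to equal sums. At a log2 size of 0.32 they were 5 for siDnmt3a, 3 for siDnmt3b and 9 for the double siRNA. Unknown depth limits what low values such as those of Mx1 and Ifnb1 in wild-type libraries can show.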

Other observations

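Interferon alpha genes were at or near 0 in most libraries and entered no comparison, because their means lay under 1 FPKM; they were looked up after the values of Ifnb1 had been seen. Of 12 interferon alpha rows, 0 were above 0 in the dox libraries, 6 in at least 1 vehicle library and 2 in at least 1 wild-type library. Ifna4 was listed at 0 in both dox libraries, against 1.34 and 2.64 FPKM in vehicle, and was at 0.0643 FPKM in siControl and at 0 in the other wild-type libraries. Ifna5 was listed at 0 in both dox libraries, against 0.302 and 0.314 FPKM in vehicle, and Ifna2 at 0 in both, against 0.150 and 0.390 in vehicle. These genes are short and alike in sequence, so which row a fragment was given to is uncertain.

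The row of the microRNA gene Mir203 was at 0 and 15.3 FPKM in dox clones 1 and 2, against 0 and 17.7 FPKM in vehicle clones 1 and 2, and at 0 in all 4 wild-type libraries. It was above 0 in clone 2 of both groups, and in clone 1 of neither. A polyadenylated RNA library does not measure the mature microRNA.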
